A study of Mus musculus with 8 samples.

Results

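The proteasome subunit genes were examined in whole testes of mice at postnatal day 12 (P12). They were taken as every gene in the count tables whose symbol is *Psma*, *Psmb*, *Psmc* or *Psmd* followed by a number, which gave 39 of the 40840 genes listed. These 39 genes comprise 7 standard alpha and 7 standard beta subunits of the 20S core, the germ cell alpha subunit *Psma8*, the 3 immunoproteasome subunits *Psmb8*, *Psmb9* and *Psmb10*, the thymoproteasome subunit *Psmb11*, and 6 ATPases and 14 other genes of the 19S regulatory particle. Among these 14, *Psmd5*, *Psmd9* and *Psmd10* encode assembly chaperones rather than subunits and are counted here with the 19S genes. The study compared 4 wild type mice with 4 *Tra2b-cPEko* mice, on a C57BL/6J background, by RNA sequencing of poly(A) RNA. In *Tra2b-cPEko* mice the poison exon of *Tra2b*, an exon whose inclusion stops the splicing factor Tra2β from being made, was removed in germ cells. Mice in the wild type group carried 1 floxed poison exon allele beside an intact allele (*Tra2bPE* fl/+), and *Tra2b-cPEko* mice carried a floxed allele, a deleted allele and *Vasa-Cre*, which recombines in germ cells only, so that testis somatic cells kept the poison exon on the floxed allele.

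The proteasome degrades proteins tagged with ubiquitin. Its barrel-shaped 20S core is built of outer alpha rings, which gate the entrance, and inner beta rings, which hold the catalytic sites, and a 19S cap recognises, unfolds and feeds in the substrate. In immune cells and after interferon the catalytic beta subunits Psmb5, Psmb6 and Psmb7 can be replaced by Psmb8, Psmb9 and Psmb10. In spermatocytes from the pachytene stage of meiosis, Psma8 takes the place of Psma7 in the alpha ring, giving the testis-specific spermatoproteasome. At P12 the first wave of spermatogenesis is around the end of zygotene, so most cells that make Psma8 are still to appear.

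Each mouse gave between 36757386 and 59101569 reads assigned to genes. These were 67.6% to 69.0% of all reads counted in wild type and 66.4% to 67.3% in *Tra2b-cPEko* mice. The genotypes did not overlap in this share, and its part in the fold changes was not tested. Levels are given in CPM, the read count of a gene scaled to a common library total after normalisation between libraries. Testis markers were present in every mouse, with 8 Sertoli cell genes summing to 4737 to 5236 CPM in wild type and 4863 to 5542 CPM in *Tra2b-cPEko* testes. The *Tra2b* gene had 158, 166, 156 and 176 CPM in wild type mice A, B, C and D and 199.9, 190.3, 192 and 209 CPM in *Tra2b-cPEko* mice A, B, C and D. All exons of *Tra2b* are counted together here, so these values do not check the deletion itself. Wild type mice A and B stood apart from the other 6 mice in the mean of 11 pachytene marker genes, though not in every gene of that list. This mean was 4.29 and 4.41 log2 CPM in these mice, against 3.45 and 3.62 in wild type mice C and D and 3.44 to 3.86 in *Tra2b-cPEko* mice. The summed level of 20 leptotene and zygotene genes ranged from 2185 to 2923 CPM in wild type and from 2246 to 2321 CPM in *Tra2b-cPEko* mice. The mean of these 20 genes was also highest in wild type mice A and B. It was 6.34 and 6.20 log2 CPM there, against 5.95 to 6.04 in the other 6 mice. Summed macrophage markers did not overlap between genotypes, with 130 to 152 CPM in wild type and 156 to 188 CPM in *Tra2b-cPEko* mice, and all 10 markers had a log2 fold change above 0. Of all genes tested, 50.3% had a log2 fold change below 0. In a whole testis, fewer cells of a type and less RNA per cell cannot be told apart.

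No proteasome subunit gene passed the main test between genotypes, and the differences were small. Of the 38 genes with enough reads to test, 0 had an adjusted p under 0.05 by edgeR's quasi-likelihood test, against 0.157% of the 19104 genes tested, and the lowest adjusted p was 0.134, for *Psmb5*. DESeq2 called 2 of them lower, *Psmb1* (adjusted p = 0.0277) and *Psmb5* (adjusted p = 0.0325), against 2.79% of the genes it tested called in either direction and 1.14% called lower. At an unadjusted edgeR p under 0.05, 9 members had a negative and 3 a positive log2 fold change, against 7.07% and 8.22% of all genes tested. The signs were uneven: 32 of 38 members (84.2%) had a log2 fold change below 0 in *Tra2b-cPEko* mice, compared with 50.3% of all genes tested, and their median was -0.06 against -0.0011 for all genes. The 4 *Tra2b-cPEko* mice lay below all 4 wild type mice for 8 members (*Psma3*, *Psma4*, *Psma6*, *Psmb1*, *Psmb2*, *Psmb5*, *Psmc3* and *Psmc6*), where the background was 4.18% of genes, and above them for *Psmd7* alone, where it was 4.36%. In the plot of fold changes by subunit class, the 2 ends of the range are *Psma8* at -0.40 and *Psmb8* at 0.39.

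**Figure D1:**
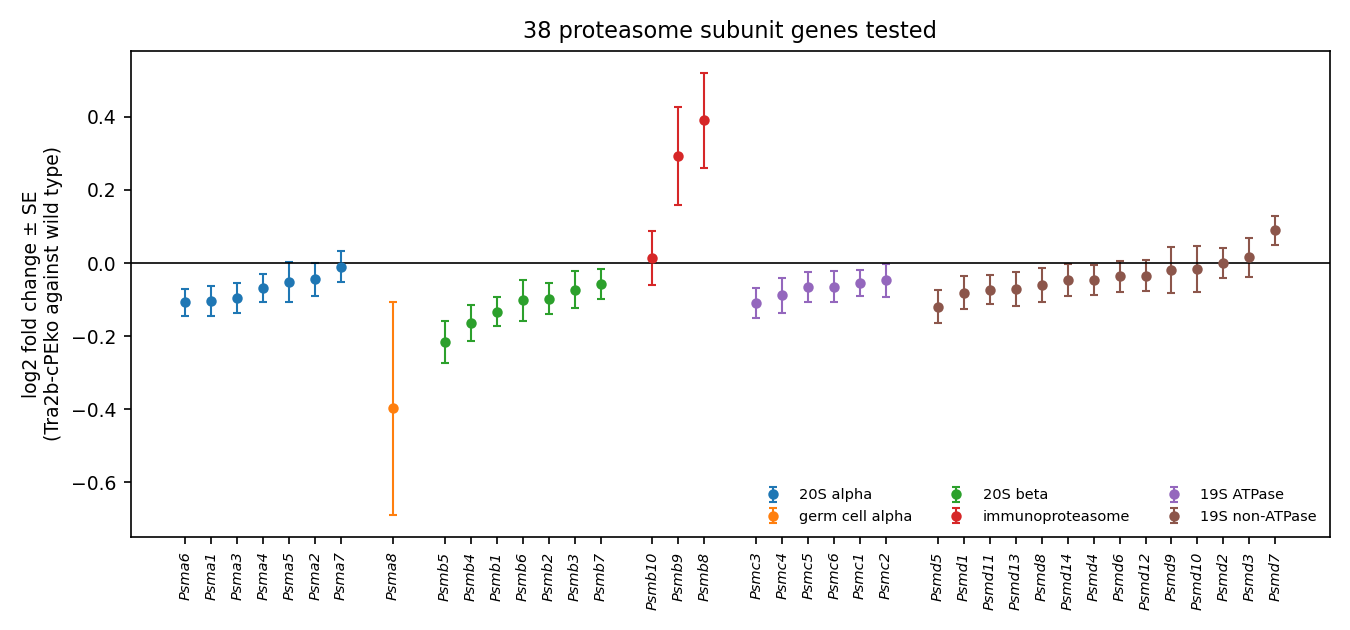
Log2 fold change of *Tra2b-cPEko* against wild type testes (edgeR, n = 4 mice per genotype) for the 38 proteasome subunit genes tested, with bars of ± 1 SE, coloured by subunit class. The 14 standard 20S subunits and the 6 ATPases all lie below 0, *Psma8* has the widest bar, and *Psmb8* and *Psmb9* lie highest.

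The 7 standard alpha subunits, which form the outer rings, all had a log2 fold change below 0, from -0.11 for *Psma6* to -0.01 for *Psma7*, with a median of -0.07. Their summed level was 846 ± 15.6 CPM in wild type and 809 ± 8.996 CPM in *Tra2b-cPEko* testes (SD, n = 4 each), a difference of -4.39%. The 4 wild type sums lay between 824 and 857 CPM and the 4 *Tra2b-cPEko* sums between 800.3 and 820.1 CPM, so the genotypes did not overlap. *Psma6* had 124, 119.9, 120.2 and 124 CPM in wild type mice A to D and 114, 113, 115 and 111 CPM in *Tra2b-cPEko* mice A to D. Every *Tra2b-cPEko* mouse was thus below every wild type mouse, yet the difference did not pass the test (log2 fold change -0.11 ± 0.04 (SE), adjusted p = 0.221 by edgeR). *Psma7*, the subunit that *Psma8* replaces, had 174, 184, 167 and 179 CPM in wild type and 175, 169, 174 and 181 CPM in *Tra2b-cPEko* mice, in the same order. Here the genotypes overlapped fully, and the 95% confidence interval of the log2 fold change was -0.10 to 0.08 (adjusted p = 0.938 by edgeR). The sign of so small a value turned with the scaling used, to 0.01 under upper-quartile factors.

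Among the 38 tested members, *Psma8* had the highest SD of log2 CPM in each genotype. The gene lies on chromosome 18 at chr18:14839184-14904059, plus strand, in GRCm39, and had 641 to 1647 reads per library. Wild type mice A, B, C and D had 37.3, 37.1, 17.6 and 19.7 CPM, and *Tra2b-cPEko* mice A, B, C and D had 20.03, 17.5, 24.5 and 22.4 CPM. Wild type mice A and B were therefore the highest of all 8, while wild type C and D lay among the *Tra2b-cPEko* mice. The means were 27.9 ± 10.7 CPM in wild type and 21.1 ± 3.06 CPM in *Tra2b-cPEko* testes (SD, n = 4 each). The log2 fold change was -0.40 ± 0.29 (SE), with a 95% confidence interval of -1.09 to 0.30 and an adjusted p of 0.557 by edgeR, and an exact two-sided permutation test gave p = 0.371. Leaving out wild type mouse A or wild type mouse B brought the log2 fold change to -0.23 in each case (adjusted p = 0.804 and 0.793 by edgeR). With the mean level of the leptotene and zygotene genes as a covariate, it was 0.04 (adjusted p = 0.964 by edgeR).

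The spread of *Psma8* within a genotype was outside that of the standard subunits. Over the 4 wild type mice its log2 CPM had an SD of 0.58, and over the 4 *Tra2b-cPEko* mice 0.21. Over the same mice the median SD of the 34 standard 20S and 19S genes was 0.057 and 0.041, and their highest was 0.117 and 0.104. In reads, *Psma8* had 21.5, 20.2, 10.5 and 11.02 per 100 reads of *Psma7* in wild type mice A to D and 11.5, 10.3, 14.1 and 12.4 in *Tra2b-cPEko* mice A to D. This ratio is not corrected for length and serves only to compare mice; its log2 difference between genotypes was -0.32 (exact two-sided permutation p = 0.371). The coding sequences of *Psma7* and *Psma8* were identical at 557 of 744 aligned bases (74.9%), with no identical run longer than 17 bases. No other gene was found to hold a near-identical copy of the *Psma8* transcript.

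*Psma8* was also set beside genes of late prophase in each mouse. Set against the mean of the 11 pachytene genes on the log2 scale, it was higher by 0.93, 0.80, 0.69 and 0.68 in wild type mice A to D and by 0.74, 0.69, 0.76 and 0.79 in *Tra2b-cPEko* mice A to D. On this scale the genotypes overlapped and differed by -0.03 (exact two-sided permutation p = 0.743), whereas relative to the leptotene and zygotene genes they differed by -0.21 (exact p = 0.4). Likeness to *Psma8* was measured for 15490 genes (mean level 1 CPM or more) as the SD over the 8 mice of the log2 ratio to *Psma8*, so that 0 means a fixed ratio. The 5 nearest genes were *Fank1* (SD 0.0824), *Meig1* (0.0853), *Gm11837* (0.0900), *Cntd1* (0.0955) and *Slc2a5* (0.0995), against a median of 0.457 over all genes compared. *Meig1*, a gene named for its expression in meiosis, had 24.0, 22.7, 11.3 and 13.0 CPM in wild type and 11.9, 11.7, 13.7 and 13.9 CPM in *Tra2b-cPEko* mice A to D. *Cntd1*, which is needed for crossover maturation, had 46.5, 48.5, 19.3 and 25.0 and 27.0, 22.3, 32.6 and 27.0 CPM in the same order. These genes were chosen for this likeness, so their pattern over the mice is a description. The nearest other proteasome subunit came at rank 1386 (SD 0.372).

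**Figure D2:**
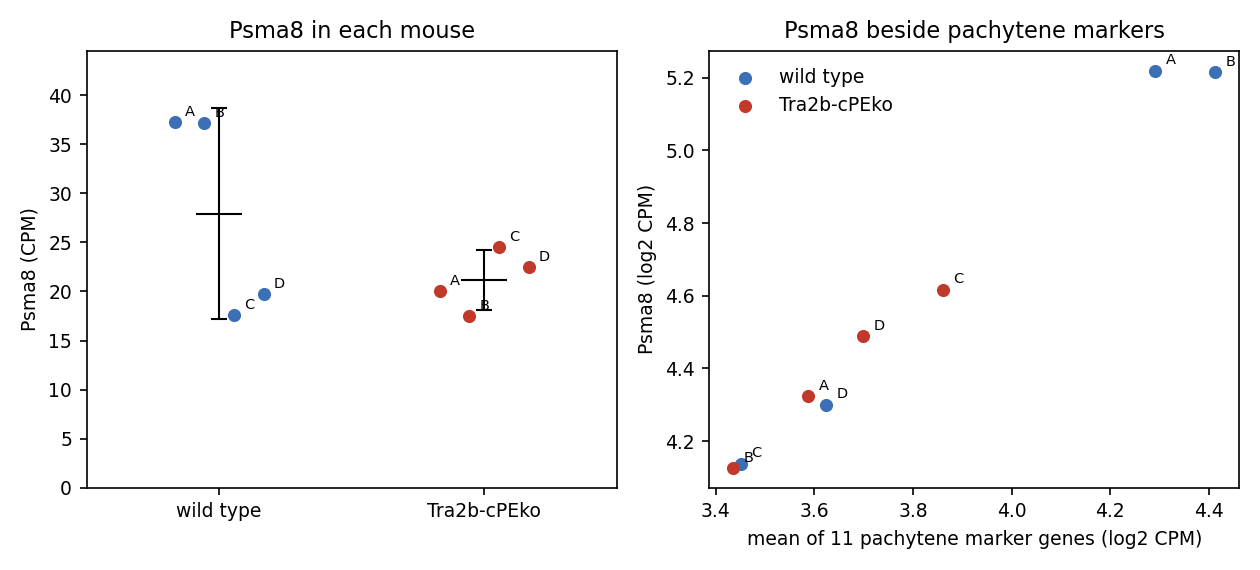
Left, *Psma8* level (CPM) in each of the 4 wild type and 4 *Tra2b-cPEko* mice, lettered A to D, with the mean and SD of each genotype; right, *Psma8* against the mean of 11 pachytene marker genes in the same mice, both in log2 CPM, with axes that do not start at 0. Wild type mice A and B are set apart at the upper right, at 37.3 and 37.1 CPM of *Psma8*, and the other 6 mice lie together below 25 CPM.

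The standard beta subunits form the inner rings, and 3 of them cut peptide bonds. The sequences just before the annotated start of *Psmb5* and *Psmb4*, the beta subunit genes with the most negative fold changes, and of *Psmb6* are shown so that the elements known from proteasome promoters can be read beside their values. They are the 250 bases upstream of the start on the gene's strand, from RefSeq on GRCm38.p6, at chr14:54617996-54618245 (minus strand) for *Psmb5*, chr3:94886959-94887208 (minus strand) for *Psmb4* and chr11:70525107-70525356 (plus strand) for *Psmb6*. Capitals mark a match on either strand to TGANNNNGC, the core of the antioxidant response element through which Nfe2l1 and Nfe2l2 act on proteasome genes.
*Psmb5*: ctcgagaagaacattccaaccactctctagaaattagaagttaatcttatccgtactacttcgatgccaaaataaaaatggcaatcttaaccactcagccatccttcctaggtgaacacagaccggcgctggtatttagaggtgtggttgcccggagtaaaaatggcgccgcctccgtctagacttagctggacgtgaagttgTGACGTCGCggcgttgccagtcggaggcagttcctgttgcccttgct
*Psmb4*: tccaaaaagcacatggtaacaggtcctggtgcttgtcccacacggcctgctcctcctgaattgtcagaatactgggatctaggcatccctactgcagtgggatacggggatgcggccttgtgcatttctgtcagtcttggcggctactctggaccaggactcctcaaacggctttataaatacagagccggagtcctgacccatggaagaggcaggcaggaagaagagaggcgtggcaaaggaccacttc
*Psmb6*: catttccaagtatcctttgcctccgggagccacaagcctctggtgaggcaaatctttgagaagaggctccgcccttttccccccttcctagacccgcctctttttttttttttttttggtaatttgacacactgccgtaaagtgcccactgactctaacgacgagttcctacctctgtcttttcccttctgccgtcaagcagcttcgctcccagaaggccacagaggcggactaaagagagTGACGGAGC
*Psmb5* holds TGACGTCGC from 47 bases before the start and *Psmb6* TGACGGAGC from 9 bases before it, while the *Psmb4* stretch holds no match, its match lying outside the bases shown. Over windows of 250 bases before to 50 bases after the start, on either strand, TGANNNNGC was in 19 of 32 members with a promoter read (59.4%) and, counted in the same way, in 45% of the 27025 genes with a promoter. The GC box GGGCGG was also in 19 of 32 members (59.4%) against 38.2% of genes, and CCAAT in 13 (40.6%) against 41.1%. The heat shock motif TTCNNNGAA was in 2 members (6.25%) against 9.55% of genes. The interferon-stimulated response element core, a pair of GAAA repeats 2 bases apart, was in 3 (9.38%), which were *Psmb3*, *Psmd4* and *Psmd9*, against 3.99%. Such matches describe letters only and were not tested for binding.

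All 7 standard beta subunits had a log2 fold change below 0, from -0.22 for *Psmb5* to -0.06 for *Psmb7*, with a median of -0.10. Their summed level was 823 ± 26.1 CPM in wild type and 760 ± 20.4 CPM in *Tra2b-cPEko* testes (SD, n = 4 each), a difference of -7.68%, with wild type sums of 799.8 to 854 CPM and *Tra2b-cPEko* sums of 743 to 789.7 CPM. The genotypes did not overlap in this sum. *Psmb5*, the chymotrypsin-like catalytic subunit, had 46.2, 49.7, 44.6 and 44.2 CPM in wild type mice A to D and 43.1, 39.2, 37.9 and 38.8 CPM in *Tra2b-cPEko* mice A to D. Every *Tra2b-cPEko* mouse was below the lowest wild type mouse, and the mean differed by -13.9% (log2 fold change -0.22 ± 0.06 (SE), adjusted p = 0.134 by edgeR; adjusted p = 0.0325 by DESeq2). *Psmb5* has transcripts of at least 95% identity in 6 other annotated genes, among them *Mir686*, which lies within it, so its count is uncertain to the extent that reads were shared or set aside.

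*Psmb1*, a non-catalytic beta subunit, had 164, 159, 155 and 155 CPM in wild type and 144, 141, 143 and 149.9 CPM in *Tra2b-cPEko* mice A to D. The genotypes did not overlap and the mean differed by -8.87% (log2 fold change -0.13 ± 0.04 (SE), adjusted p = 0.16 by edgeR; adjusted p = 0.0277 by DESeq2). *Psmb4*, another non-catalytic beta subunit, had 164, 165, 148 and 161 CPM in wild type and 153, 137, 139 and 140.5 CPM in *Tra2b-cPEko* mice, with *Tra2b-cPEko* mouse A above wild type mouse C (log2 fold change -0.16 ± 0.05 (SE), adjusted p = 0.167 by edgeR). *Psmb6*, the caspase-like subunit, had 135, 148, 125 and 125 CPM in wild type and 130.2, 123, 121 and 122 CPM in *Tra2b-cPEko* mice. Its genotypes overlapped, wild type mouse B being the highest of all (log2 fold change -0.10 ± 0.06 (SE), adjusted p = 0.408 by edgeR). *Psmb7*, the trypsin-like subunit, overlapped as well, at 149, 150.5, 149 and 141 CPM in wild type and 144, 139, 146 and 137 CPM in *Tra2b-cPEko* mice (log2 fold change -0.06 ± 0.04 (SE), adjusted p = 0.519 by edgeR).

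**Figure D3:**
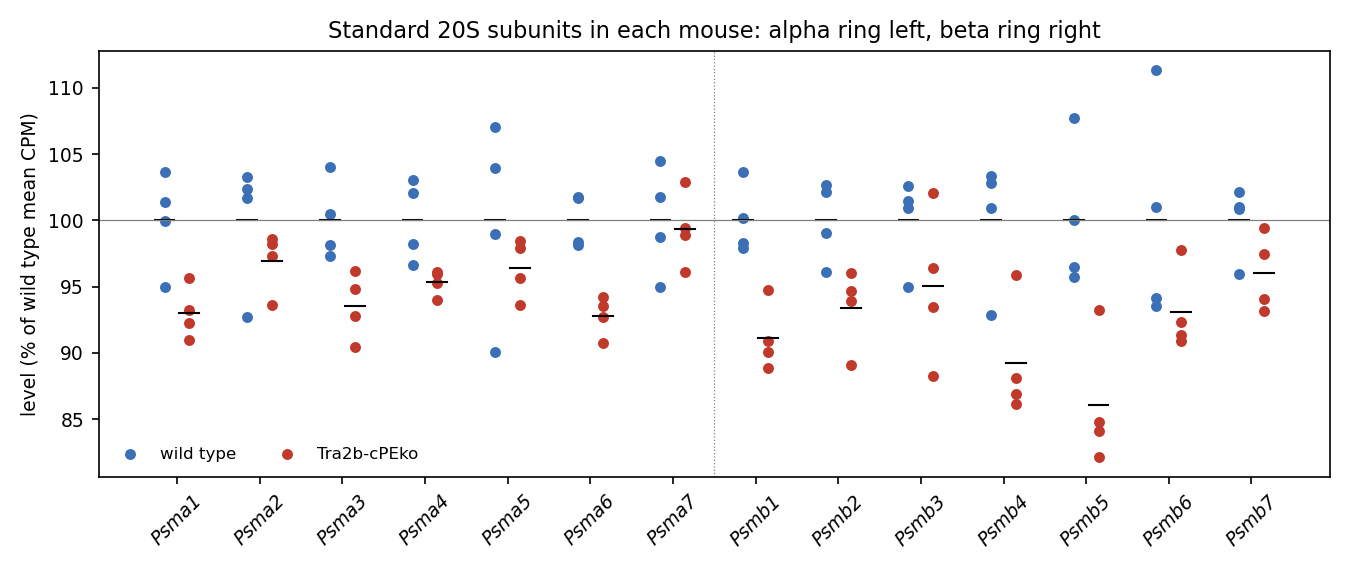
Level of each standard 20S subunit gene in each mouse as a percentage of its wild type mean CPM, with the alpha subunits left and the beta subunits right of the dotted line; short lines mark the mean of 4 mice, and the axis does not start at 0. The *Tra2b-cPEko* mean is below 100% for all 14 genes and lowest for *Psmb5*, which differed by -13.9% from the wild type mean.

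The immunoproteasome subunits went the other way in sign, with all 3 log2 fold changes above 0 and a median of 0.29, but none passed the test. *Psmb8*, which replaces Psmb5, had 2.65, 3.004, 2.42 and 2.30 CPM in wild type mice A to D and 3.37, 3.68, 3.66 and 2.86 CPM in *Tra2b-cPEko* mice A to D, from 105 to 171 reads per library. *Tra2b-cPEko* mouse D alone lay within the wild type range, and the mean was 30.7% higher (log2 fold change 0.39 ± 0.13 (SE), adjusted p = 0.201 by edgeR; 95% confidence interval 0.11 to 0.67). *Psmb9*, which replaces Psmb6, had 1.76, 1.87, 2.06 and 2.202 CPM in wild type and 2.65, 2.21, 2.18 and 2.67 CPM in *Tra2b-cPEko* mice, from 78 to 132 reads per library. Here *Tra2b-cPEko* mouse C lay just within the wild type range (log2 fold change 0.29 ± 0.13 (SE), adjusted p = 0.321 by edgeR). *Psmb10*, which replaces Psmb7, had the most reads of the 3 genes and its genotypes overlapped, at 13.8, 15.5, 14.2 and 15.7 CPM in wild type and 16.5, 14.9, 14.1 and 14.4 CPM in *Tra2b-cPEko* mice (log2 fold change 0.01 ± 0.07 (SE), adjusted p = 0.952 by edgeR). Its fold change turned below 0, to -0.0022, with the leptotene and zygotene covariate. *Psmb8* and *Psmb9* lie close together on chromosome 17, at chr17:34416690-34420428 (plus strand) and chr17:34400960-34406738 (minus strand) in GRCm39. Exons of *Psmb9* overlap those of *Tap1*, and exons of *Psmb8* those of *Gm20496*, on the opposite strand, and the strand setting of the counting was not given in the sources used here. *Psmb11*, which is specific to thymic epithelium, had 0 to 3 reads per library and was not tested.

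Because the standard and immuno forms compete for the same place in the ring, the reads of each pair were also set against each other within a mouse. *Psmb8* had 5.73, 6.04, 5.43 and 5.21 reads per 100 reads of *Psmb5* in wild type mice A to D and 7.82, 9.39, 9.64 and 7.36 in *Tra2b-cPEko* mice A to D. All 4 *Tra2b-cPEko* mice were above all 4 wild type mice, and the log2 ratio differed by 0.60 (exact two-sided permutation p = 0.0286, the smallest that 4 against 4 mice allow, and 0.114 after adjustment over 8 such ratios). *Psmb9* had 1.31, 1.26, 1.65 and 1.77 reads per 100 reads of *Psmb6* in wild type and 2.03, 1.79, 1.80 and 2.19 in *Tra2b-cPEko* mice. The genotypes were again apart, if narrowly, and the log2 ratio differed by 0.39 (exact two-sided permutation p = 0.0286, adjusted p = 0.114). Neither ratio passed after adjustment. Leaving out any 1 *Tra2b-cPEko* mouse (A, B, C or D) took the exact permutation p of *Psmb9* against *Psmb6* above 0.05, up to 0.0857, while that of *Psmb8* against *Psmb5* was 0.0286 without any 1 of the 8 mice. With 1 mouse left out, the groups are unequal, the arrangements are fewer than 70, and 0.0286 is again the smallest p possible. Leaving out a mouse cannot make groups that are apart overlap, so the genotypes stayed apart in both ratios. *Psmb10* against *Psmb7* overlapped, and differed by 0.07 (exact two-sided permutation p = 0.371). The first 2 ratios combine a numerator with a positive and a denominator with a negative fold change, neither of which passed the test by edgeR. The paired coding sequences were 67.9%, 66.2% and 63.3% identical for *Psmb5* and *Psmb8*, *Psmb6* and *Psmb9*, and *Psmb7* and *Psmb10*.

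**Figure D4:**
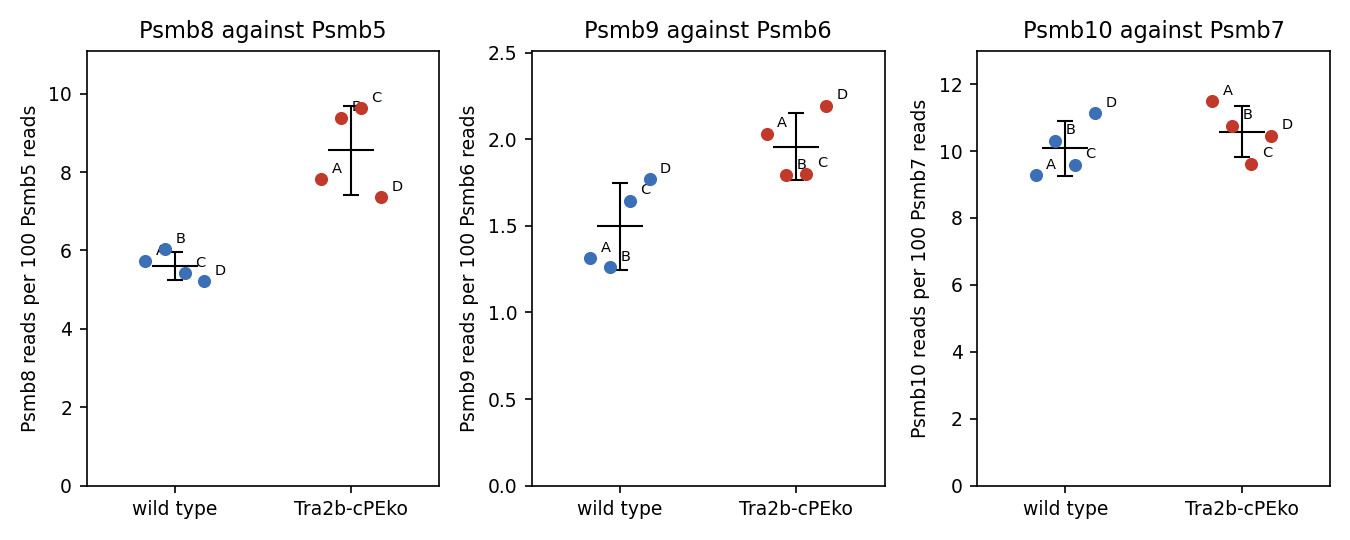
Reads of each immunoproteasome subunit per 100 reads of the standard subunit it replaces, not corrected for length, in each mouse, lettered A to D, with the mean and SD of each genotype (n = 4). The genotypes are apart for *Psmb8* against *Psmb5* (log2 difference 0.60), narrowly so for *Psmb9* against *Psmb6* (0.39), and overlap for *Psmb10* against *Psmb7* (0.07).

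The macrophage markers had fold changes of the same sign as *Psmb8* and *Psmb9*, with a median of 0.26 over the 10 genes and summed levels that did not overlap between genotypes, as given above. This sign was not particular to macrophages. Above 0 were also 5 of 6 Leydig cell genes (median 0.43), 6 of 6 peritubular and stromal genes (0.09) and 6 of 6 endothelial genes (0.06). The 8 Sertoli cell genes split into 5 below and 3 above 0. Relative to the mean of the macrophage list, *Psmb8* differed between genotypes by 0.11 (exact two-sided permutation p = 0.371), *Psmb9* by 0.02 (exact p = 0.914) and *Psmb10* by -0.26 (exact p = 0.0571). For *Psmb9* the sign turned when wild type mouse A or B or *Tra2b-cPEko* mouse A or D was left out, down to -0.05. Other leukocyte and antigen presenting cell markers had a median of 0.22, with 6 of 8 above 0, and summed to 22.9 to 30.9 CPM in wild type and 24.1 to 35.5 CPM in *Tra2b-cPEko* mice. Relative to that list, *Psmb8* differed by 0.23 (exact p = 0.143), *Psmb9* by 0.14 (exact p = 0.629) and *Psmb10* by -0.14 (exact p = 0.4). Of 11 antigen processing and interferon signalling genes, 6 were above and 5 below 0, 0 passed the test by edgeR or DESeq2, and 0 had an unadjusted p under 0.05. *Tap1*, a peptide transporter subunit that shares a promoter region with *Psmb9*, had 7.37 ± 0.662 CPM in wild type and 7.24 ± 0.555 CPM in *Tra2b-cPEko* testes (log2 fold change -0.02 ± 0.10 (SE), adjusted p = 0.934 by edgeR).

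The 6 ATPases of the 19S base, a ring that unfolds substrates and opens the core, all had a log2 fold change below 0, with a median of -0.07. Their summed level was 798 ± 15.4 CPM in wild type and 758 ± 12.0 CPM in *Tra2b-cPEko* testes, a difference of -5.05%, and the genotypes did not overlap (781 to 818 against 748 to 775 CPM). *Psmc3* had the lowest fold change, at 193, 205, 191 and 196 CPM in wild type mice A to D and 189, 182, 174 and 182 CPM in *Tra2b-cPEko* mice A to D. Its highest *Tra2b-cPEko* mouse, A, lay just below its lowest wild type mouse, C (log2 fold change -0.11 ± 0.04 (SE), adjusted p = 0.253 by edgeR). *Psmc2* had the highest fold change of the ring and overlapped (log2 fold change -0.05 ± 0.05 (SE), adjusted p = 0.654 by edgeR).

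The 14 other 19S genes were the least uniform class, with 11 below and 3 above 0 and a median of -0.04. Their summed level of 1930.0 ± 19.9 CPM in wild type and 1897 ± 17.9 CPM in *Tra2b-cPEko* testes differed by -1.72%, and the genotypes overlapped. *Psmd7*, the lid subunit that pairs with the deubiquitinase Psmd14, was the exception among all members in having all 4 *Tra2b-cPEko* mice above all 4 wild type mice, at 181, 189, 186 and 175 CPM in wild type and 194, 192, 198 and 193 CPM in *Tra2b-cPEko* mice. The difference was 6.36% and did not pass the test (log2 fold change 0.09 ± 0.04 (SE), adjusted p = 0.305 by edgeR). *Psmd14* itself overlapped between genotypes, with 88.2 ± 3.49 CPM in wild type and 85.4 ± 2.60 CPM in *Tra2b-cPEko* testes. *Psmd2*, a scaffold of the base and the member with the most reads, had 488, 488, 508 and 470.2 CPM in wild type and 499, 473, 498 and 483 CPM in *Tra2b-cPEko* mice. Its log2 fold change was 0.00, with a 95% confidence interval of -0.09 to 0.09 (adjusted p = 0.998 by edgeR). *Psmd5*, an assembly chaperone of the base, had 71.9, 69.0, 72.3 and 74.3 CPM in wild type and 64.6, 70.1, 64.5 and 65.5 CPM in *Tra2b-cPEko* mice, and *Tra2b-cPEko* mouse B lay within the wild type range (log2 fold change -0.12 ± 0.05 (SE), adjusted p = 0.251 by edgeR). The other chaperones *Psmd9* and *Psmd10* had log2 fold changes of -0.02 each.

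Marker lists of germ cells differed in sign: 17 of 20 leptotene and zygotene genes and 7 of 7 differentiating spermatogonia genes were below 0, against 50.3% of all genes tested. The 10 genes of undifferentiated spermatogonia split into 5 below and 5 above 0 (median -0.0062). The differentiating spermatogonia genes summed to 911 to 952 CPM in wild type and 786 to 855 CPM in *Tra2b-cPEko* mice. *Sohlh1*, a transcription factor of differentiating spermatogonia, was the only gene of that list to pass the test by edgeR, against 0.157% of all genes tested. DESeq2 called *Sohlh1* and 1 leptotene and zygotene gene lower, and 1 Leydig cell and 2 macrophage genes higher. It called 2.79% of the genes it tested in either direction. With the leptotene and zygotene level as a covariate the number of members below 0 was again 32 of 38 but these were not the same genes, since *Psma7* and *Psma8* turned above and *Psmb10* and *Psmd2* below 0. Over the 8 fits that leave out 1 mouse the number was 29 to 35. The part of the differentiating spermatogonia in these values was not tested.

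Levels were compared between genes only per kilobase of transcript, and their order depended on the length used. Per kilobase of all annotated exons, the highest were *Psmd2* at 96.6, *Psmc3* at 59.9 and *Psmb6* at 58.6 CPM per kilobase (means of 8 mice). Per kilobase of the canonical transcript, the highest were *Psma7* at 186, *Psmd2* at 162 and *Psmb4* at 128 CPM per kilobase. *Psma7* moved from rank 7 of 39 to rank 1 between these lengths. The lower end was stable: *Psmb8*, *Psmb9* and *Psmb11* took ranks 37 to 39 with both lengths, at 1.76 CPM per kilobase of canonical transcript for *Psmb8* and 1.63 for *Psmb9*. *Psma8* ranked 34 with the canonical length, at 14.3 CPM per kilobase (range over 8 mice 10.2 to 21.7), and 36 with all exons, at 1.90 (1.35 to 2.88). Of the 38 pairs of neighbours in the order, 28 overlapped over mice with the canonical length and 29 with all exons, so most adjacent ranks do not separate.

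**Figure D5:**
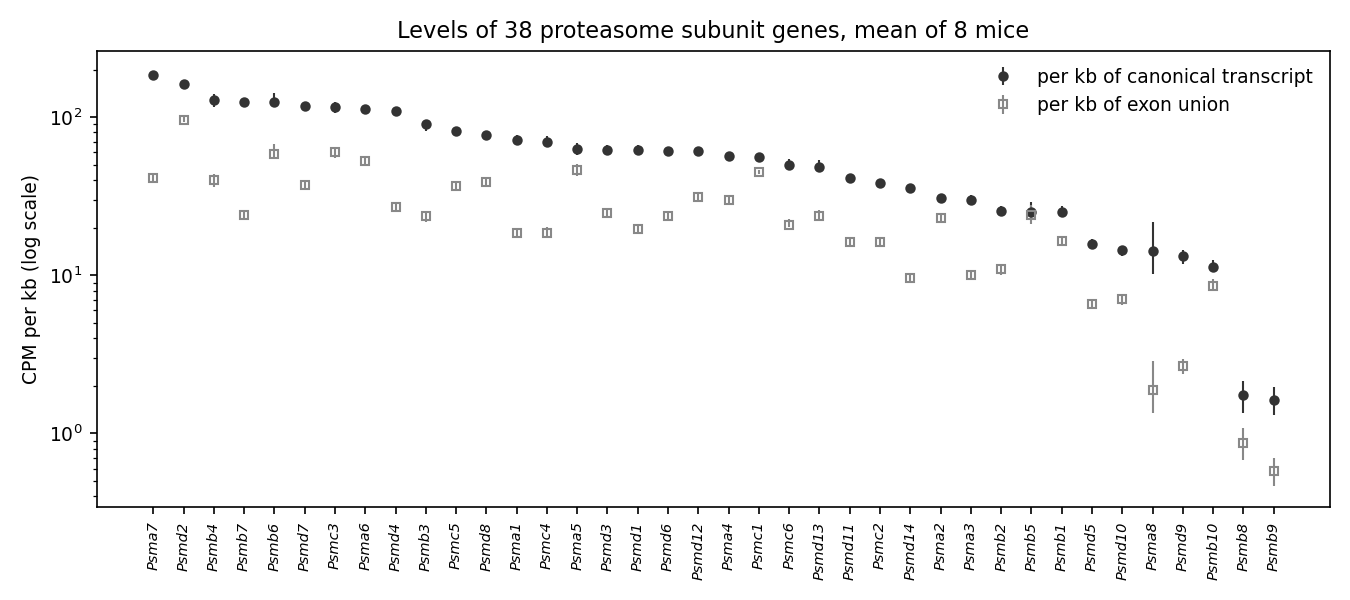
Mean level over 8 mice of the 38 proteasome subunit genes other than *Psmb11*, in CPM per kilobase on a log scale, with bars from the lowest to the highest mouse; filled circles use the canonical transcript length and open squares the length of all annotated exons. *Psmb8* and *Psmb9* lie at or below 2.16 CPM per kilobase with both lengths, and *Psma8* has the longest bars.

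The genes that serve the proteasome outside the symbol pattern were counted in 8 lists. Of 46 listed genes 44 had enough reads to test, 32 of them had a log2 fold change below 0 (50.3% of all genes), and 0 passed the test by edgeR, while DESeq2 called 2 lower (*Psmg2*, adjusted p = 0.0482, and *Rps27a*, adjusted p = 0.0372), against 1.14% of all genes. At an unadjusted p under 0.05, 8 were lower and 0 higher, against 7.07% and 8.22% of all genes. The 5 assembly factors of the 20S core were all below 0. *Psmg2*, whose product pairs with that of *Psmg1* in building the alpha ring, had 34.0, 31.9, 29.8 and 31.4 CPM in wild type mice A to D and 29.1, 26.7, 27.5 and 27.6 CPM in *Tra2b-cPEko* mice A to D. The genotypes did not overlap (log2 fold change -0.20 ± 0.06 (SE), adjusted p = 0.148 by edgeR). *Psmg1* itself had 39.9 ± 2.67 CPM in wild type and 36.1 ± 1.10 CPM in *Tra2b-cPEko* testes (log2 fold change -0.15 ± 0.06 (SE), adjusted p = 0.263 by edgeR). *Pomp*, which helps join and mature the core, had a log2 fold change of -0.07 ± 0.05 (SE). The 7 subunits and enzymes bound to the 19S cap were all below 0 and summed to 900.1 to 911 CPM in wild type and 862 to 884 CPM in *Tra2b-cPEko* mice. Among them the deubiquitinase *Uchl5* (log2 fold change -0.16 ± 0.05 (SE), adjusted p = 0.183 by edgeR) and the thioredoxin-like *Txnl1* (log2 fold change -0.14 ± 0.05 (SE), adjusted p = 0.191 by edgeR) did not overlap between genotypes.

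The activators *Psme1*, *Psme2*, *Psme3* and *Psme4* and the inhibitor *Psmf1* had log2 fold changes between -0.09 and -0.01. *Psme4*, whose product PA200 caps the spermatoproteasome, had 156 ± 10.4 CPM in wild type and 151 ± 5.46 CPM in *Tra2b-cPEko* testes (log2 fold change -0.05 ± 0.05 (SE), adjusted p = 0.688 by edgeR). *Psme1* and *Psme2*, the interferon-induced activator, had log2 fold changes of -0.01 and -0.09 (adjusted p = 0.933 and 0.504 by edgeR), and that of *Psme1* turned to 0.0049 under upper-quartile factors. *Nfe2l1*, the transcription factor that raises proteasome genes when proteolysis falls short, had 393 ± 18.9 CPM in wild type and 408 ± 4.24 CPM in *Tra2b-cPEko* testes (log2 fold change 0.05 ± 0.04 (SE), adjusted p = 0.574 by edgeR). *Akirin2*, which brings proteasomes into the nucleus, was below all wild type mice in all 4 *Tra2b-cPEko* mice (log2 fold change -0.12 ± 0.04 (SE), adjusted p = 0.208 by edgeR). The 4 ubiquitin genes ran from *Rps27a* (log2 fold change -0.18 ± 0.05 (SE), adjusted p = 0.142 by edgeR) to *Ubb*, with a log2 fold change of 0.03. Among the ubiquitin receptors and the segregase, *Ubqln4* (-0.16) and *Ufd1* (-0.12) had an unadjusted p under 0.05 and *Vcp* lay at -0.01 ± 0.04 (SE).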

How the data were processed

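The authors deposited raw read counts per gene for each of 8 mice, in whole reads; summary lines were left out. The submitters' processing notes name HISAT2 2.2.1, SAMtools 1.7.1, HTSeq 2.0.2, deepTools 3.5.1 and the GRCm39 build, and the paper's methods also name Salmon; the strand setting was not given in the sources used here. Reads not placed uniquely were 14.6% to 15.6% of each library, so the 8 of 39 members with near-identical copies (95% identity over at least 50% of the copy) may be undercounted.

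Genes passing edgeR's filterByExpr (10 reads, 15 in all; 19104 genes) were scaled by TMM and tested for genotype over all 8 mice with edgeR 4.0.16 (robust quasi-likelihood, R 4.3.3), with Benjamini-Hochberg adjustment over all genes at 0.05; the biological coefficient of variation was 9.56%. DESeq2 1.42.0 and limma 3.58.1 were alternatives. Ratios used log2 CPM (prior count 2) and exact permutation over 70 arrangements. Copies were searched with BLAST+ 2.17.0 and coding sequences aligned with Biopython 1.88 on GENCODE transcripts. Scripts were tested on simulated data.

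Members and lists were chosen with earlier results of these data known. Named genes were *Psma8*, *Psma7*, the catalytic and immuno subunits, members called by edgeR or DESeq2, the extremes of each class and of level per length, pathway genes with an unadjusted p under 0.05 plus a few fixed ones, and the 5 genes most like *Psma8*. *Psmd9*, *Psmd10*, *Psmd14*, *Sohlh1*, *Ubb*, *Vcp*, the printed promoters, the canonical length and the ratios to the pachytene and other leukocyte lists were chosen after seeing the data. *Paaf1*, the promoter of *Psma8* and protein sequences were not analysed here.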

Additional observations from a re-analysis of the deposited data

Results flagged for a closer look

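Of 84 groups of 4 mice examined for a single mouse far from the rest (Dixon's ratio above its 95% critical value), 2 were singled out, where chance would give about 4.2. *Akirin2* was low in wild type mouse C, at 60.1 CPM, so its distance from the *Tra2b-cPEko* mice (all at 58.7 CPM or less) was smallest there. *Psme4* was high in wild type mouse A, at 172 CPM.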

How the results depend on the processing

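The fold changes of most standard subunits are near the spread between 4 mice, and *Psmb8* and *Psmb9* rest on few reads. Across all 18 alternatives, no edgeR or limma-voom fit called a member, and DESeq2 called 2 members and 2 genes of the pathway lists. The number of members below 0 was 29 (without *Tra2b-cPEko* mouse B) to 35 (without wild type mouse A). The median of the 19S non-ATPase genes moved to -0.023 under upper-quartile factors and -0.026 with the leptotene and zygotene covariate, which brought the immunoproteasome median to 0.20. Leaving out 1 mouse gave medians of -0.052 to -0.026 for the 19S non-ATPase genes and -0.10 to -0.058 for the alpha subunits. It gave log2 differences of 0.54 to 0.67 for *Psmb8* against *Psmb5* (exact p = 0.0286 in all 8), and of 0.31 to 0.47 for *Psmb9* against *Psmb6* (exact p up to 0.0857, above 0.05 without any 1 *Tra2b-cPEko* mouse). Relative to the macrophage list it gave -0.052 to 0.12 for *Psmb9* and -0.32 to -0.17 for *Psmb10* (exact p = 0.0286 without *Tra2b-cPEko* mouse A). With 1 mouse left out, 0.0286 is the smallest exact p possible. The cause of these changes was not tested.

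Among the genes named in the text, those below turned sign; other members near 0 were followed only by the count above. With the leptotene and zygotene covariate the log2 fold change was 0.035 for *Psma8*, 0.00021 for *Psma7*, -0.0022 for *Psmb10*, -0.0061 for *Psmd2*, 0.0060 for *Psme4*, 0.063 for *Gm11837* and 0.15 for *Cntd1*. Upper-quartile factors gave 0.0088 for *Psma7* and 0.0049 for *Psme1*, and *Psmd2* was -0.00063 with RLE factors, -0.0080 without a low-count filter and -0.0020 by DESeq2. Leaving out 1 mouse gave -0.036 to 0.013 for *Psma7*, -0.040 to 0.041 for *Psmb10*, -0.021 to 0.017 for *Psmd2*, -0.051 to 0.024 for *Psme1* and -0.084 to 0.021 for *Tap1*.

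Letters A to D are shared by the genotypes, but same-letter mice did not deviate together (correlations over genes of 0.03, -0.14, -0.04 and 0.12), so they were not taken as pairs. With the letter as a replicate block, edgeR called 67 genes over all and 0 members, and *Psmb5* had a log2 fold change of -0.22 (adjusted p = 0.121).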
